A study of Mus musculus with 16 samples.

Results

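The 10 genes described here encode enzymes that degrade the branched-chain amino acids leucine, isoleucine and valine, and the kinase that controls this route. They were taken by symbol from a table of 23970 gene symbols measured by RNA sequencing of mouse quadriceps, a thigh muscle, and all 10 were found. They are Bcat2, Bckdha, Bckdhb, Dbt, Bckdk, Ivd, Mccc1, Acadsb, Hibch and Hibadh. The study asked how obesity caused by a high-fat diet alters the muscle transcriptome and its response to exercise. All 16 mice were male C57BL/6NTac, 16 weeks old, and the labels name no mutation or transgene. For 10 weeks they had eaten a control diet (CON) with 10% of its kcal as fat or a high-fat diet (HFD) with 60%. Muscle was taken from 4 mice in each group, without exercise (called pre, CON-pre or HFD-pre) or 3 h after 1 maximal treadmill bout (groups CON-post and HFD-post). Mice of all 4 groups had the same treadmill habituation and the same length of fast, and the pre and post groups are different mice, so each exercise comparison is between animals.

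Skeletal muscle begins the breakdown of branched-chain amino acids with BCAT2, the mitochondrial transaminase, which turns them into branched-chain keto acids. The branched-chain keto acid dehydrogenase (BCKDH) complex then commits the keto acids to oxidation: BCKDHA and BCKDHB form its E1 component, DBT is the E2 component and DLD the E3 component, which other dehydrogenases share. BCKDK phosphorylates E1 and switches the complex off, and the phosphatase PPM1K reverses this. Below the complex the routes divide. IVD and the carboxylase whose alpha subunit is MCCC1 act on leucine carbon, ACADSB acts mainly on isoleucine carbon, and HIBCH and HIBADH act on valine carbon.

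The promoters of the 4 genes with the lowest p for diet are shown because these genes were lower in HFD than in CON both before and after exercise. The RefSeq promoter table used here matched 9 of the 10 genes, in 11 windows, and Dbt was not among them. Each sequence below is the 250 bases before an annotated transcript start, read 5′ to 3′ on the strand of the gene, in build GRCm38.p6. Capitals mark the letters CCAAT, or ATTGG where the match is on the other strand. These letters were chosen after the sequences had been seen. Bcat2 has 2 windows in the table, of which the first is shown. Both lie inside the annotated gene, which begins at chr7:45568967, so the bases before that position were not searched. The windows are chr7:45569903-45570152 (plus strand) for Bcat2, chr7:131410351-131410600 (plus strand) for Acadsb, chr3:36000679-36000928 (minus strand) for Mccc1 and chr2:118861744-118861993 (plus strand) for Ivd.
Bcat2: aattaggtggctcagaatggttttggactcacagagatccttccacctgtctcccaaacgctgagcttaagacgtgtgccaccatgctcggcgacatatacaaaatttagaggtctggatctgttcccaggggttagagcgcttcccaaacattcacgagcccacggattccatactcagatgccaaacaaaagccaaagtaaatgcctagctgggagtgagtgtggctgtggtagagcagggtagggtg
Acadsb: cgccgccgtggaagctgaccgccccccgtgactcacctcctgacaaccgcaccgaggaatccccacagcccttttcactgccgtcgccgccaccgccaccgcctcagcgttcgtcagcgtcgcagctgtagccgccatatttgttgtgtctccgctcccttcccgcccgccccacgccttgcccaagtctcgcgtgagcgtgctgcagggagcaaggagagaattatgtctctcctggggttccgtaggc
Mccc1: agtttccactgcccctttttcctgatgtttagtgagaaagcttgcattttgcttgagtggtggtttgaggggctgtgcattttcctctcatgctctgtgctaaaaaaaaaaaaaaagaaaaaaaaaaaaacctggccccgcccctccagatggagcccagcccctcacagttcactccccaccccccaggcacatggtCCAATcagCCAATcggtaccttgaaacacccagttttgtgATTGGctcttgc
Ivd: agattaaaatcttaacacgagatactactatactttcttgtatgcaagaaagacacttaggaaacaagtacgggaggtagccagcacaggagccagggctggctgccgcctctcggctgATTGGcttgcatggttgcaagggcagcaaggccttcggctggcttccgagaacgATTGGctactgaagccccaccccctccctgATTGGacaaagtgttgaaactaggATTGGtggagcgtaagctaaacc
The Ivd window held 4 matches and the Mccc1 window 3, and neither the Acadsb window nor either Bcat2 window held one. In all, 5 of the 11 windows, each of a different gene, had a match, the others being windows of Bckdhb, Bckdk and Hibadh. Of 32851 mouse promoter windows of this length, 33.8% held at least 1 match and 2.79% held 3 or more. The letters AAGGTCA, searched on both strands, were in 0 of the 9 genes and in 4.08% of all windows. Neither motif contains the other.

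Expression was deposited as FPKM, in which the fragments of a gene are divided by its transcript length and by library size, so levels can be set beside each other between genes. All 10 genes were detected in every library. Hibadh was the most abundant, at a mean of 64.8 FPKM over the 16 libraries, and was followed by Bckdha at 59.1 FPKM. Bckdk stood at 43.6 FPKM, Ivd at 39.2, Acadsb at 29.7, Bcat2 at 23.0 and Hibch at 19.99. The lowest levels were those of Bckdhb at 13.5 FPKM, Mccc1 at 9.78 and Dbt at 8.51. Neighbours in this order changed places in some libraries: Hibadh exceeded Bckdha in 14 of 16, Bckdk exceeded Ivd in 12 of 16 and Bcat2 exceeded Hibch in 11 of 16. Hibch exceeded Bckdhb and Mccc1 exceeded Dbt in 15 of 16, and the remaining neighbours kept their order in all 16. The subunits of the complex were therefore present at unequal mRNA levels, with the E1 alpha subunit above E1 beta and E2. Dld, which serves several complexes, was at 92.3 FPKM and Ppm1k at 1.89 FPKM.

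The spread between libraries differed among the genes. The coefficient of variation over the 16 libraries was lowest for Hibadh (5.74%), Bckdk (6.34%), Bckdha (6.90%) and Hibch (7.24%). It was highest for Bckdhb (18.9%), Bcat2 (15.4%) and Ivd (14.5%). Single libraries were often at the edge of their group: CON-pre replicate 4 had the highest value for 6 of the 10 genes, CON-post replicate 3 had the highest for 6 and CON-post replicate 2 the lowest for 8.

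**Figure D1:**
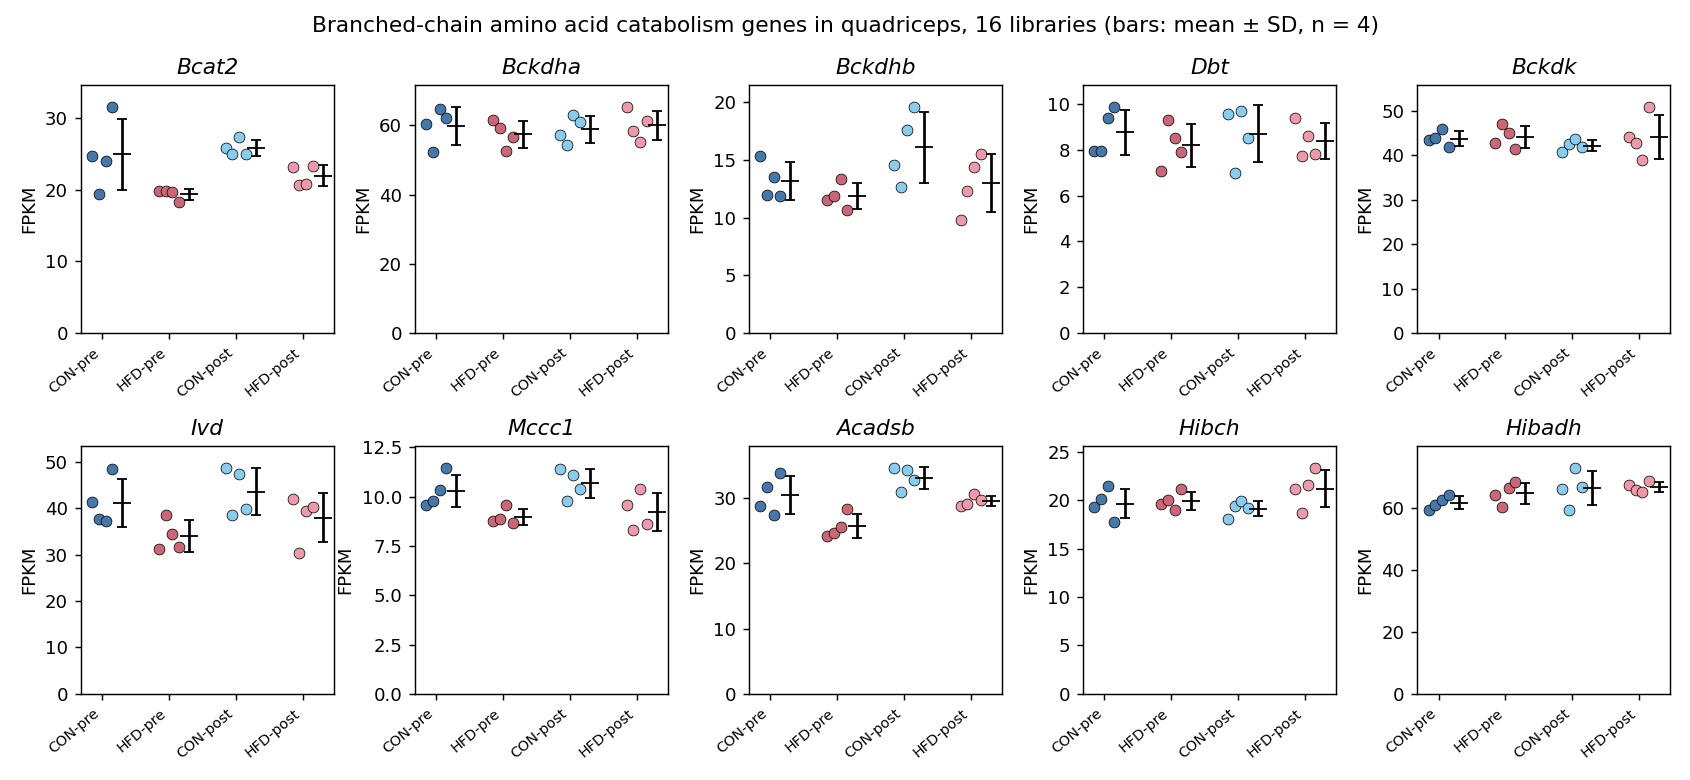
FPKM (vertical axes, starting at 0) of each of the 10 genes in the 16 libraries, as points in 4 groups of 4, with the mean and SD beside them. Bcat2 and Acadsb were lower in all 4 HFD-post libraries than in any CON-post library, which was true of 1.28% of all genes. The groups of Bckdha, Bckdhb, Dbt, Bckdk, Ivd, Hibch and Hibadh overlapped in every comparison of 2 groups made here.

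No gene of the 10 passed an adjusted p of 0.05 for diet in the basal state, and the genes with the lowest p were all lower in HFD-pre than in CON-pre. Differences are given as log2(FPKM + 0.5) with the SE, from limma over all 11256 genes tested, adjusted by Benjamini-Hochberg. In the basal state, 0.346% of all genes tested passed that threshold. Differences of the 10 genes ran from -0.34 to 0.07. The median was -0.12, beside -0.034 over all genes tested. Of the 10 genes, 7 were lower, beside 6786 of all 11256 genes tested.

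Bcat2, the transaminase at the head of the route, had the largest difference in the basal state. It measured 24.7, 19.4, 24.0 and 31.5 FPKM in CON-pre and 19.7, 19.9, 19.6 and 18.3 FPKM in HFD-pre. The HFD-pre libraries lay close together, and the lowest CON-pre library fell among them. The difference was -0.34 ± 0.10 (SE, n = 4 per group, limma adjusted p = 0.294). It rested in part on CON-pre replicate 4, and was -0.22 without that library (adjusted p = 0.452).

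Acadsb, the dehydrogenase of the isoleucine route, measured 28.7, 31.7, 27.4 and 33.9 FPKM in CON-pre and 24.2, 24.6, 25.6 and 28.3 FPKM in HFD-pre. One HFD-pre library exceeded the lowest CON-pre library. The difference was -0.24 ± 0.07 (limma adjusted p = 0.293). Mccc1, of the leucine route, measured 9.59, 9.78, 10.3 and 11.4 FPKM in CON-pre and 8.75, 8.88, 9.57 and 8.65 FPKM in HFD-pre. Its groups did not overlap, by a margin of less than 0.1 FPKM, and it was the only one of the 10 of which this was true; 3.94% of all genes were lower without overlap in this comparison. Its difference was -0.19 ± 0.08 (limma adjusted p = 0.556).

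Ivd, which follows the complex in leucine breakdown, measured 41.5, 37.7, 37.3 and 48.4 FPKM in CON-pre and 31.2, 38.7, 34.5 and 31.8 FPKM in HFD-pre. HFD-pre replicate 2 exceeded the 2 lowest CON-pre libraries. The difference was -0.27 ± 0.12 (limma adjusted p = 0.543). Without adjustment, 4 of the 10 genes (Bcat2, Acadsb, Ivd and Mccc1) had a limma p under 0.05 and were lower, beside 5.76% of all genes tested. The other 6 had adjusted p between 0.863 and 0.996. In the BCKDH system, Bckdhb was at -0.14, Dbt at -0.09, Bckdha at -0.06 and Bckdk at 0.01 on the log2 scale. The valine enzymes were at 0.02 for Hibch and 0.07 for Hibadh. Bckdhb was at -0.071 without CON-pre replicate 1.

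After exercise the diet groups were again without a passing gene, and 0.151% of all genes passed. Differences between HFD-post and CON-post ran from -0.30 for Bckdhb to 0.14 for Hibch, with a median of -0.10 beside 0.0038 over all genes. Bcat2 measured 25.8, 24.9, 27.3 and 25.04 FPKM in CON-post and 23.1, 20.7, 20.8 and 23.3 FPKM in HFD-post. Acadsb measured 34.5, 30.9, 34.2 and 32.8 FPKM in CON-post and 28.7, 29.1, 30.6 and 29.7 FPKM in HFD-post. In both genes every HFD-post library was below every CON-post library, which was true of 1.28% of all genes. The differences were -0.23 ± 0.10 for Bcat2 (limma adjusted p = 0.766) and -0.16 ± 0.07 for Acadsb (limma adjusted p = 0.758).

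Bckdhb, the E1 beta subunit, had a wide spread after exercise. It measured 14.6, 12.6, 17.6 and 19.5 FPKM in CON-post and 9.77, 12.3, 14.4 and 15.5 FPKM in HFD-post. The groups overlapped, and the difference of -0.30 ± 0.14 had a limma adjusted p of 0.820. Without HFD-post replicate 1, the lowest library, it was -0.17. Mccc1 differed by -0.20 ± 0.08 (limma adjusted p = 0.691) and Ivd by -0.20 ± 0.12 (limma adjusted p = 0.907), which was -0.10 without HFD-post replicate 2. Unadjusted, 3 of the 10 genes (Bcat2, Mccc1 and Acadsb) had p under 0.05 and were lower, beside 3.17% of all genes. The valine enzyme Hibch went the other way, at 18.1, 19.4, 19.9 and 19.2 FPKM in CON-post and 21.2, 18.7, 21.6 and 23.3 FPKM in HFD-post, a difference of 0.14 ± 0.07 (limma adjusted p = 0.885). One HFD-post library of Hibch lay within the CON-post range. The other 4 genes were at -0.04 for Dbt, 0.01 for Hibadh, 0.03 for Bckdha and 0.06 for Bckdk.

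Averaging the diet difference over pre and post used all 16 libraries, and it too gave no passing gene among the 10, while 0.959% of all genes passed. The lowest adjusted p were those of Acadsb and Bcat2. Acadsb differed by -0.20 ± 0.05 (95% interval -0.31 to -0.09, limma adjusted p = 0.0894) and Bcat2 by -0.28 ± 0.07 (interval -0.44 to -0.13, limma adjusted p = 0.0952). These correspond to 0.870 and 0.823 times the CON level. Mccc1 followed at -0.19 (limma adjusted p = 0.165), Ivd at -0.24 (0.252) and Bckdhb at -0.22 (0.466). These 5 genes had an unadjusted p under 0.05 and were lower, beside 6.54% of all genes. They belong to the head of the route, to E1 beta and to the leucine and isoleucine branches.

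Bcat2 did not pass in the main fit, and whether it passed depended on 1 library and on the weighting. Without CON-pre replicate 2, in which Bcat2 was lowest of its group, the averaged difference was -0.34 (limma adjusted p = 0.0116), and with weights that scale each library by its scatter it was -0.29 (limma adjusted p = 0.0423). Without CON-pre replicate 4 it was -0.22 (limma adjusted p = 0.0940).

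The remaining genes had averaged diet differences whose intervals included 0. Bckdha differed by -0.01 (95% interval -0.13 to 0.10), Dbt by -0.07 (-0.24 to 0.10) and the kinase Bckdk by 0.03 (-0.08 to 0.14). The valine enzymes were at 0.04 for Hibadh (-0.05 to 0.14) and 0.08 for Hibch (-0.03 to 0.19). Over the 10 genes, no 95% interval of the averaged diet difference reached beyond 1.36-fold in either direction.

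**Figure D2:**
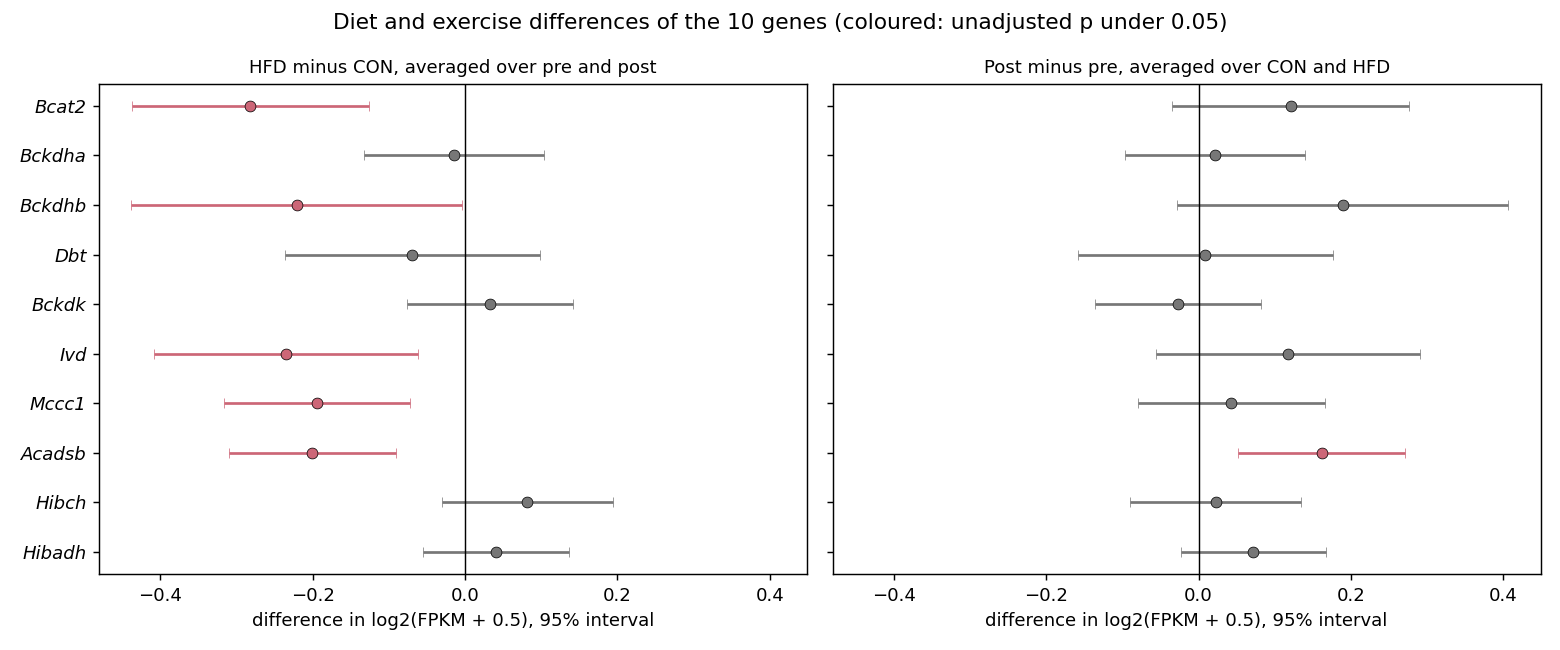
Difference in log2(FPKM + 0.5) with its 95% interval (horizontal axis) for each of the 10 genes, for diet averaged over pre and post (left) and for exercise averaged over CON and HFD (right). Bcat2, Acadsb, Mccc1, Ivd and Bckdhb had diet intervals below 0, and Acadsb alone had an exercise interval above 0, all at an adjusted p above 0.05.

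The 10 genes differed little between mice sampled 3 h after exercise and mice without exercise. In CON mice 0 of 10 passed, while 1.11% of all genes passed, and in HFD mice 0 of 10 passed, while 0.542% of all genes did. Differences ran from -0.05 to 0.27 in CON and from -0.0012 to 0.20 in HFD. The medians were 0.06 in CON (-0.0058 over all genes) and 0.07 in HFD (0.035 over all genes). The largest difference in CON was that of Bckdhb, 0.27 ± 0.14 (limma adjusted p = 0.527), with overlapping groups, and it was 0.17 without CON-post replicate 4. Acadsb was at 0.12, and at 0.075 without CON-pre replicate 3. Hibadh was at 0.10, Ivd at 0.08, Bcat2 at 0.07 and Mccc1 at 0.05. Dbt, Bckdha, Hibch and Bckdk lay between -0.05 and -0.02.

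In HFD mice, Acadsb was higher after exercise by 0.20 ± 0.07 (limma adjusted p = 0.288), and it alone of the 10 had an unadjusted p under 0.05, beside 8.5% of all genes that were higher at that p. Every HFD-post library of Acadsb exceeded every HFD-pre library (28.7 to 30.6 FPKM against 24.2 to 28.3 FPKM). Bcat2 was also without overlap (20.7 to 23.3 FPKM against 18.3 to 19.9 FPKM) and differed by 0.17 ± 0.10 (limma adjusted p = 0.544), or by 0.082 with an adipocyte marker score in the fit and 0.11 with quantile normalization. Of all genes, 4.72% were higher without overlap in this comparison. Ivd was at 0.15, and between 0.10 and 0.26 without HFD-post replicate 1 and without HFD-post replicate 2. It was 0.083 with quantile normalization and 0.089 with upper-quartile scaling. Bckdhb was at 0.11, at 0.056 and 0.051 under those 2 scalings, at -0.0069 with the adipocyte score, and between 0.023 without HFD-post replicate 4 and 0.24 without HFD-post replicate 1. Hibch was at 0.08, Bckdha at 0.06, Hibadh at 0.05, Mccc1 and Dbt at 0.03 and Bckdk at -0.0012. The diet and exercise comparisons share groups, so the low HFD-pre values enter both.

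Averaged over both diets, 3.86% of all genes passed for exercise and 0 of the 10 did. The 10 genes had a median of 0.06 beside 0.014 over all genes. Of the 10, 9 were higher, Bckdk being lower, beside 6047 of all 11256 genes tested. The count of 9 fell to 8 with median-of-ratios scaling, 6 with quantile normalization and 5 with upper-quartile scaling. Acadsb had the lowest adjusted p, with a difference of 0.16 ± 0.05 (95% interval 0.05 to 0.27, limma adjusted p = 0.0970). It was the single gene of the 10 with an unadjusted p under 0.05, and 11.7% of all genes were higher at that p. Without CON-pre replicate 4 its difference was 0.19 (limma adjusted p = 0.0414), and with library weights 0.19 (limma adjusted p = 0.0383). All 10 adipocyte markers were higher after exercise in this comparison (median 0.28, of which Plin4 passed at a limma adjusted p of 0.00641), and the 3 liver markers tested were lower. With the adipocyte score in the fit Acadsb was at 0.14 (limma adjusted p = 0.314), Bckdhb at 0.10 in place of 0.19, and Bcat2 at 0.055 in place of 0.12.

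Whether exercise acted differently in HFD and CON mice was tested as an interaction. None of the 10 passed, with differences of -0.15 for Bckdhb to 0.12 for Hibch and a limma adjusted p of 1.00 after rounding for each. These values turned on single libraries: Bckdhb was between -0.26 without CON-post replicate 2 and -0.028 without HFD-post replicate 1, and Hibch was at 0.070 without HFD-post replicate 4. Bcat2, at 0.11, was between -0.0088 without CON-pre replicate 4 and 0.22 without CON-pre replicate 2. Over all genes, 0% passed in limma, the only tool run across genes, and 238 were higher and 118 lower at an unadjusted p under 0.05. The 95% intervals of the 10 genes reached from -0.59 to 0.42 on the log2 scale.

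The balance between the kinase and the phosphatase was compared as a ratio within each library. The ratios printed are of FPKM, and the tests used log2 ratios with 0.5 added to both values, which weighs on Ppm1k because it is low. Bckdk/Ppm1k averaged 23.9 ± 3.75 (SD, n = 4) in CON-pre, 24.0 ± 6.76 in HFD-pre, 25.1 ± 8.72 in CON-post and 24.2 ± 7.36 in HFD-post. Group means were closer to each other than the libraries within any group. Exact two-sided permutation p values were at least 0.886 in all 6 comparisons. Ppm1k was at 1.16 to 2.64 FPKM, so its share of the scatter is large.

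The ratio of the E1 subunits, Bckdha/Bckdhb, averaged 4.58 ± 0.561 in CON-pre, 4.89 ± 0.659 in HFD-pre, 3.74 ± 0.502 in CON-post and 4.80 ± 1.31 in HFD-post (SD, n = 4). The CON-post libraries, at 3.93, 4.31, 3.58 and 3.13, were low, and overlapped CON-pre at 3.93, 4.36, 4.80 and 5.23. The difference between them on the log2 scale was -0.29 (exact two-sided permutation p = 0.0571, adjusted p = 0.534 over 12 ratio tests). HFD-post differed from CON-post by 0.33 (exact permutation p = 0.171, adjusted p = 0.534), or by 0.16 without HFD-post replicate 1. The diet difference averaged over pre and post was 0.21 (exact permutation p = 0.102, adjusted p = 0.534), or 0.12 without that library. Exercise averaged over the diets gave -0.17 (exact permutation p = 0.178), and the other 2 comparisons had exact permutation p of 0.486 and 0.714. With 4 libraries against 4 the smallest p this exact test can give is 0.0286.

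**Figure D3:**
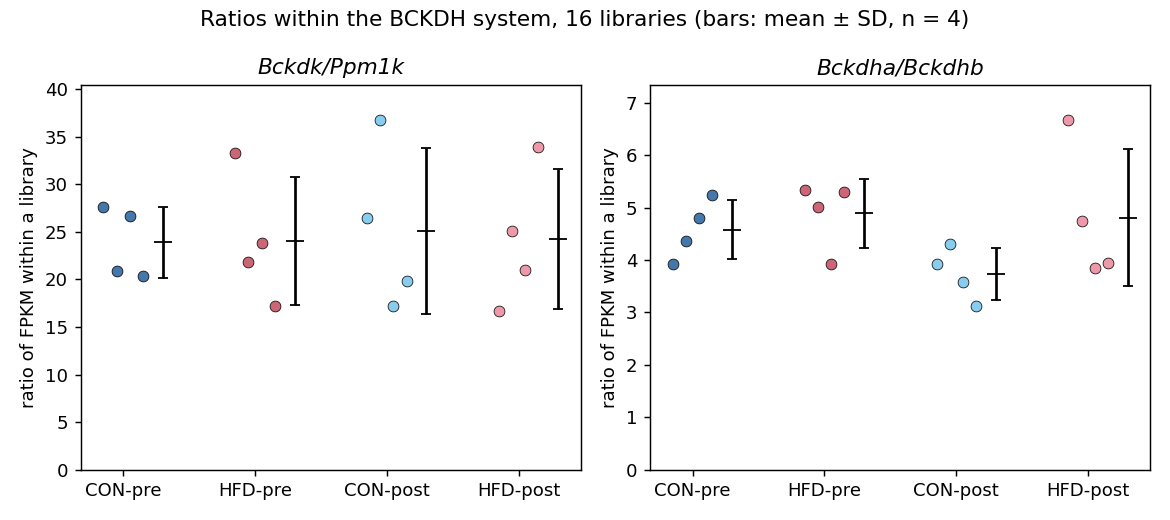
Ratio of FPKM within a library (vertical axes, starting at 0) for Bckdk to Ppm1k and for Bckdha to Bckdhb, as points in 4 groups of 4 with mean and SD. Bckdk/Ppm1k means lay between 23.9 and 25.1 in all groups, and Bckdha/Bckdhb was lowest in CON-post at a mean of 3.74.

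The rest of the pathway was described from a list of 26 other genes for transport, transamination and the later steps, of which 24 were tested. Bcat1, the cytosolic transaminase, and Slc7a5, a plasma membrane transporter, were below a mean of 0.5 FPKM (0.068 and 0.45 FPKM) and were not tested. In the averaged diet comparison 2 of 24 rose, 0 fell and 22 did not pass, with a median of -0.021, while 0.959% of all genes passed. The genes that rose were Hadha, the alpha subunit of the mitochondrial trifunctional protein of fatty acid oxidation (0.47 ± 0.06, limma adjusted p = 4.6e-04), and Acat1, the thiolase that closes the isoleucine route and ketone body use (0.30 ± 0.05, limma adjusted p = 0.00739). Hadha also rose in the basal state (0.53, limma adjusted p = 0.00838) and was then the only gene of the list to pass. The lowest adjusted p among the others was that of Hadhb, the beta subunit of the same protein, at 0.41 (limma adjusted p = 0.178). Auh, the hydratase of the leucine route, was higher in HFD, at 0.17 (limma adjusted p = 0.229), unlike Ivd and Mccc1 of the same route. Mccc2, the partner subunit of MCCC1, was at -0.10 (limma adjusted p = 0.625). Slc43a1, an amino acid transporter, was at -0.30 (limma adjusted p = 0.361), Mmab, of the propionyl-CoA steps, at -0.13 (limma adjusted p = 0.481) and Dld at 0.06 (limma adjusted p = 0.681). No gene of the list passed for exercise.

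Fatty acid oxidation, which shares Hadha, Hadhb and Echs1 with this list, is set beside the 10 genes for the averaged diet comparison. Of 16 beta-oxidation genes, 11 rose, 0 fell and 5 did not pass, and their median was 0.41, beside -0.13 for the 10 genes and -0.017 over all genes, of which 0.959% passed. The TCA cycle list had 0 of 17 passing and a median of 0.07. Acyl-CoA dehydrogenases act on fatty acids and on branched chains, and were not tested as a group. Those of fatty acids, Acadl (0.68), Acadvl (0.43) and Acadm (0.41), rose with limma adjusted p of 1.85e-05, 0.00291 and 5.05e-04, and Acads was at 0.30 (limma adjusted p = 0.0508). Of those of branched chains none passed: Acadsb was at -0.20, Ivd at -0.24 and Acad8, of the valine route, at -0.05 (limma adjusted p = 0.865). The difference between the lists was not tested.

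**Figure D4:**
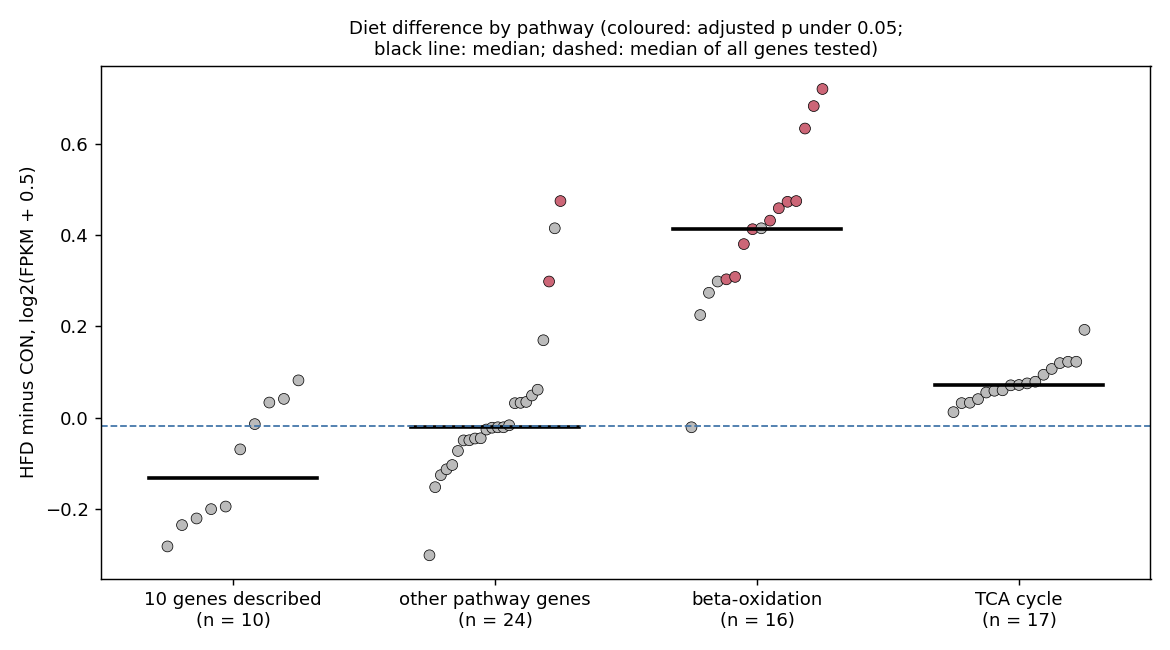
HFD minus CON, averaged over pre and post, in log2(FPKM + 0.5) (vertical axis) for the 10 genes, 24 other pathway genes, 16 beta-oxidation genes and 17 TCA cycle genes. Black lines are medians, the dashed line is the median of all genes tested, and coloured points passed an adjusted p of 0.05. Beta-oxidation genes lay highest (median 0.41) and the 10 genes lowest (median -0.13).

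Among candidate regulators, Ppargc1a, the transcriptional coactivator of mitochondrial genes, rose after exercise by 1.98 ± 0.19 in CON (limma adjusted p = 4.38e-05) and by 2.10 ± 0.19 in HFD (limma adjusted p = 2.87e-05). Klf15, a transcription factor known to induce Bcat2 in muscle, was at 12.4, 11.0, 11.9 and 21.0 FPKM in CON-pre and at 14.7 to 19.7 FPKM in CON-post. In HFD mice it was at 12.1 to 15.3 FPKM before and 15.6 to 20.9 FPKM after exercise, without overlap (0.45 ± 0.16, limma adjusted p = 0.277). CON-pre replicate 4 was far above the other 3 of its group, and it was also the library highest in Bcat2. Klf15 differed by 0.39 ± 0.11 for exercise averaged over the diets (limma adjusted p = 0.0665) and by 0.02 for diet (limma adjusted p = 0.966). For diet, Ppargc1a was at -0.45 in the basal state, without overlap (limma adjusted p = 0.520), and at -0.39 averaged (limma adjusted p = 0.234). Ppard, a nuclear receptor, was at -0.19 in the basal state, also without overlap (limma adjusted p = 0.527). Of the 5 regulators tested, Ppargc1a was the 1 that passed in any comparison, which it did for exercise.

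Muscle markers were abundant in every library (8 fibre genes summing to 33975 to 43212 FPKM). Slow-fibre markers, whose expression follows fibre composition, summed to 212 to 727 FPKM in CON-pre, 198 to 526 in HFD-pre, 193 to 720 in CON-post and 194 to 761 in HFD-post, with none of the 9 at 0 throughout a group. All 8 of those tested were lower in HFD in the averaged comparison (median -0.44), and none passed. With a slow-fibre score in the fit, the averaged diet difference was -0.26 for Bcat2 (limma adjusted p = 0.118), -0.18 for Acadsb (0.118), -0.15 for Mccc1 (0.174), -0.19 for Ivd (0.300) and -0.24 for Bckdhb (0.341). In bulk tissue, fewer cells of a type and less RNA per cell cannot be told apart. The 8 fast-fibre markers were lower too (median -0.17), 6 of them at an unadjusted p under 0.05 and none after adjustment, among them Pvalb at -0.21 (limma adjusted p = 0.204) and Actn3 at -0.21 (limma adjusted p = 0.230). The part of fast-fibre markers in the result was not tested. The 8 general muscle fibre markers were split, 4 higher and 4 lower (median -0.056, none passing), with Mb, the myoglobin gene, at 0.35 and Ckm, the muscle creatine kinase, at -0.21 (limma adjusted p = 0.0870).

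Markers of other cells were present at low to moderate levels and varied between libraries. The 10 adipocyte markers summed to 398 to 776 FPKM, the 5 blood markers to 199 to 651 FPKM, the 5 macrophage markers found of 6 to 46.2 to 124 FPKM and the 4 liver markers to 0.271 to 22.7 FPKM, with 1 liver marker at 0 throughout CON-post. In the averaged diet comparison the adipocyte gene Lep rose and Cfd fell, and no marker of blood, macrophages or liver passed. With an adipocyte score in the fit, Bcat2 was at -0.31 (limma adjusted p = 0.0635) and Acadsb at -0.21 (limma adjusted p = 0.0966) for diet. FPKM of a library summed to 283575 to 329282, the relative depth estimated from low genes was 0.705 to 1.12, and the 10 most abundant genes held 29.2 to 36.5% of FPKM. The part of depth in these results was not tested.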

How the data were processed

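Quadriceps RNA of 16 mice in 4 groups of 4 was analysed. According to the labels and the study's methods, the authors prepared stranded poly(A) libraries, sequenced them on a HiSeq2500, checked reads with FastQC, aligned them with TopHat to mm9 and used Cufflinks for expression. What they deposited are FPKM computed by the authors, already scaled for length and library size. They are not counts, so no count model was used. The study's methods give only an approximate number of reads per sample, so the depth in reads of each library is unknown. A relative depth (0.705 to 1.12) was estimated from genes at or below 0.5 FPKM.

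Of 24487 entries, 27 named by a number (0.0771% of FPKM) were left out, and entries of 260 symbols were summed, leaving 23970. The 11256 genes averaging 0.5 FPKM or more were tested on log2(FPKM + 0.5), a scale that understates changes of low genes, with limma 3.58.1 (R 4.3.3, statmod 1.5.0) in 1 fit of 4 groups with a mean-variance trend. Adjustment was by Benjamini-Hochberg, with 0.05 as threshold. Log2 ratios of FPKM + 0.5 were compared by exact permutation, within strata for the averaged comparisons, and adjusted over 12 tests. Code was tested on simulated data. Tables and figures used Python 3.11.15, pandas 2.3.3, scipy 1.17.1, numpy 2.4.6 and matplotlib 3.10.9.

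The 10 genes and the lists were chosen with earlier results of these data known. The 10 genes are named throughout, and other pathway genes where they passed or, at most 3 a list and comparison, for their low adjusted p. Promoter positions are in RefSeq GRCm38.p6, since of 692 gene loci in a supplement of the study 692 overlapped the gene in GRCm38 and 113 did in NCBIM37 (mm9). Alternatives were pseudocounts, filters, scalings, weights, covariates, thresholds, a replicate block and leaving out each library. Metabolite data are not analysed here.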

Additional observations from a re-analysis of the deposited data

Results flagged for a closer look

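In HFD-pre, the lowest of the 4 Bcat2 libraries stood apart from the others: replicate 4 measured 18.3 FPKM, while the others lay between 19.6 and 19.9 FPKM. Its gap to the nearest library was 0.851 of the range of the group. It was 1 of 48 groups of 4 looked at, and chance flags about 1 in 20 such groups.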

How the results depend on the processing

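With 4 mice a group, none of the 10 genes passed in any of the 7 comparisons, and that count moved only in the settings given here. At an adjusted p under 0.1 it was 2 for diet averaged over pre and post and 1 for exercise averaged over CON and HFD. At an unadjusted p under 0.05 it was 4 for HFD-pre vs CON-pre, 3 for HFD-post vs CON-post and 5 for diet averaged, all lower. Of all genes, 5.76%, 3.17% and 6.54% were lower at that p. The count was 1 for HFD-post vs HFD-pre and 1 for exercise averaged, both higher, beside 8.5% and 11.7% of all genes. With array weights it was 1 for diet averaged (Bcat2) and 1 for exercise averaged (Acadsb). Leaving out each library in turn gave 0 to 1 for diet averaged and 0 to 1 for exercise averaged (without CON-pre replicate 2 and without CON-pre replicate 4, respectively), and 0 in the other comparisons. The share of all genes passing at 0.1, with array weights or with a library left out was not counted. Fitting only the groups compared gives no averaged or interaction value. The depth in reads of each library is unknown.

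Labels give the groups the same replicate numbers, but of 24 same-numbered pairs of libraries 5 had a correlation of deviations over 0.1 (range -0.22 to 0.21), so the numbers were not taken as pairs. With the replicate number as a block 0 genes passed, and diet averaged gave an adjusted p of 0.129 for Bcat2 and 0.136 for Acadsb.

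Of the values of single genes, 2103 kept their direction and side of the threshold, 21 came past a threshold and 86 changed sign. Of the ratios, 193 kept both and 35 changed sign. The counts for genes include settings that changed only the threshold, which reuse the main values and could not change a sign. The cause of the sign changes was not tested. With upper-quartile scaling, HFD-post vs HFD-pre was -0.026 for Dbt, -0.026 for Mccc1 and -0.018 for Hibadh, and exercise averaged was -0.024 for Bckdha, -0.034 for Dbt, -0.00043 for Mccc1 and -0.022 for Hibch. With median-of-ratios scaling, HFD-post vs HFD-pre was -0.0019 for Dbt and -0.0012 for Mccc1, diet averaged was 0.0042 for Bckdha and exercise averaged was -0.0068 for Dbt. With quantile normalization, HFD-post vs HFD-pre was -0.028 for Bckdha, -0.014 for Dbt, -0.023 for Mccc1 and -0.037 for Hibadh, and exercise averaged was -0.047 for Bckdha, -0.026 for Dbt and -0.022 for Hibch. With array weights, CON-post vs CON-pre was 0.010 for Dbt, and HFD-post vs CON-post was -0.0090 for Bckdha and -0.0094 for Hibadh. With the adipocyte score, CON-post vs CON-pre was 0.015 for Dbt, HFD-post vs HFD-pre -0.0069 for Bckdhb, HFD-post vs CON-post 0.0029 for Dbt and the interaction 0.011 for Mccc1. With the slow-fibre score, HFD-pre vs CON-pre was 0.0041 for Dbt and -0.010 for Bckdk, HFD-post vs HFD-pre -0.011 for Dbt and 0.0070 for Bckdk, and Dbt was 0.013 for HFD-post vs CON-post, 0.0087 for diet averaged and -0.016 for exercise averaged. For Bckdk/Ppm1k, a pseudocount of 0.1 gave 0.014 for CON-post vs CON-pre and 0.0086 for exercise averaged, and a pseudocount of 1 gave 0.0032 for HFD-post vs CON-post.

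Leaving out each library in turn gave these ranges where a sign changed. For HFD-pre vs CON-pre they were -0.024 to 0.036 for Bckdk, -0.023 to 0.066 for Hibch and -0.15 to 0.10 for Bckdk/Ppm1k. For CON-post vs CON-pre they were -0.043 to 0.18 for Bcat2, -0.085 to 0.019 for Bckdha, -0.070 to 0.078 for Dbt, -0.082 to 0.0063 for Hibch and -0.16 to 0.12 for Bckdk/Ppm1k. For HFD-post vs HFD-pre they were -0.031 to 0.093 for Dbt, -0.070 to 0.056 for Bckdk, -0.021 to 0.080 for Mccc1, -0.15 to 0.13 for Bckdk/Ppm1k and -0.21 to 0.042 for Bckdha/Bckdhb. For HFD-post vs CON-post they were -0.14 to 0.0093 for Dbt, -0.012 to 0.067 for Bckdha, -0.037 to 0.061 for Hibadh, -0.0099 to 0.12 for Bckdk and -0.17 to 0.15 for Bckdk/Ppm1k. For diet averaged they were -0.046 to 0.0072 for Bckdha, -0.0011 to 0.062 for Bckdk and -0.093 to 0.063 for Bckdk/Ppm1k. For exercise averaged they were -0.023 to 0.056 for Dbt, -0.011 to 0.041 for Bckdha, -0.00074 to 0.051 for Hibch, -0.061 to 0.0018 for Bckdk and -0.079 to 0.065 for Bckdk/Ppm1k. For the interaction they were -0.072 to 0.029 for Mccc1, -0.0088 to 0.22 for Bcat2, -0.044 to 0.11 for Dbt, -0.011 to 0.17 for Ivd and -0.018 to 0.11 for Bckdk.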
